A study of Mus musculus with 8 samples.

Results

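The nuclear genes of respiratory complexes II to V were followed in left ventricles of mice 3 days after ischemia-reperfusion injury, with and without an inhibitor of the microRNA miR-195 in an injected hydrogel. The 44 genes were taken as a list of symbols by complex and not picked by their measured values, though earlier results of these data were known. They comprise 4 genes of complex II, 10 of complex III together with cytochrome c, 15 of complex IV and 15 of complex V. All 44 were found among the 38293 gene identifiers of the deposited count table, and all 44 passed the filter on low counts that left 13972 genes in the test. None of the 44 differed between the groups beyond the spread between libraries. What varied was the libraries themselves: 33 of the 44 genes had their highest level in 1 library, antimiR-195 replicate 2, none of them in complex II. The median deviation there from the mean over 8 libraries was 0.71 on the log2 scale for the 21 members with mRNAs under 700 bases. It was 0.09 for the 9 members of 1500 bases or more.

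The respiratory chain of the inner mitochondrial membrane passes electrons from nutrients to oxygen and stores the energy as a proton gradient. Complex II, succinate dehydrogenase, links the chain to the citric acid cycle. Complex III passes electrons on to the small carrier cytochrome c, complex IV (cytochrome c oxidase) hands them to oxygen, and complex V (ATP synthase) lets protons flow back and makes ATP. The heart beats without pause and is among the tissues richest in these proteins. Several complex IV subunits exist in a form of heart and skeletal muscle and in a form found in most other tissues, and mitochondrial DNA encodes some further subunits of complexes III, IV and V.

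All 8 libraries hold polyadenylated RNA from left ventricles of C57BL/6J mice in which a coronary artery was tied off and released. Each heart received 2 injections of 10 µl of Upy-PEG, a supramolecular hydrogel used as a drug depot. The gel held no drug in the 4 libraries of the hydrogel group and antimiR-195, an oligonucleotide that blocks miR-195, in the 4 libraries of the antimiR-195 group. Both groups share the injury and the gel, and uninjured or uninjected hearts were not analysed here. The labels give neither age nor sex, and none says that each library is a separate animal, so p-values measure only the spread between these libraries. Replicate numbers follow the order of deposition and pair nothing across groups.

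Libraries held 16872968 to 22751753 gene counts, and the 44 genes took 3.13% to 4.96% of them. Levels are given as CPM, counts scaled to a common library size with TMM factors, and levels of different genes are compared only per length. The tissue label was checked against 16 cardiomyocyte markers, which were all found and summed to between 100880 and 126660 CPM in the hydrogel libraries and between 105560 and 123960 CPM in the antimiR-195 libraries. Of 8 skeletal muscle markers, 5 (Myh1, Myh2, Myh4, Actn3 and Pvalb) were below 1 CPM in all libraries, while Mybpc2 lay at 21.3 to 48.2 CPM and Tnnt3 and Tnni2 reached 8.1 and 6.89 CPM, both highest in antimiR-195 replicate 2. Of 6 brown fat genes, 4 (Ucp1, Adipoq, Plin1 and Elovl3) were below 1 CPM, while Cidea lay at 22.3 to 32.7 CPM and Ppargc1a, which heart muscle also expresses, at 46 to 95.5 CPM. AntimiR-195 replicate 2 stood apart: its log2 CPM correlated with those of the other libraries at 0.948 to 0.974 across genes, against 0.981 to 0.993 for the other pairs. It also had the highest summed neutrophil markers, 71.8 CPM against 25.4 to 36.2 CPM elsewhere, with the neutrophil marker Ly6g at 0 in all libraries. S100a8 and S100a9, with mRNAs of 486 and 512 bases, made up most of that sum at 20.5 and 31.9 CPM. Retnlg was also highest there, but Csf3r, Cxcr2 and Mmp8 were not. Summed macrophage markers were highest in this library too, 2489 CPM against 1436 to 2280 CPM. Lyz2, C1qa, C1qb, C1qc, Cd14, Fcgr1 and Ly6c2 were highest there, while Adgre1, Csf1r, Cd68, Mrc1 and Ccr2 were not. The sums alone therefore do not show cell content. The signs and medians below that rest on this library are given with and without it.

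The inhibited microRNA is shown with its seed, bases 2 to 8, in capitals, because the seed is the stretch that pairs with target mRNAs. It is the RefSeq mature sequence at chr11:70235062-70235082 on the plus strand of GRCm38.p6.
mmu-miR-195a-5p: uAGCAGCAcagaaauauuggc
The exact complement of the seed, TGCTGCT, was searched on the sense strand of 1 mRNA model per gene (GENCODE M21, GRCm38). It was present in the 3′ UTR of 2 of the 44 members, or 4.55%, against 21% of 12989 tested genes with an mRNA model. The members' 3′ UTRs are short, with a median of 171.5 bases against 894 bases over the tested genes. Both matches are shown with the complement of the seed in capitals, at chr11:96073060-96073086 on the minus strand for Atp5g1 and chr9:108949563-108949589 on the plus strand for Uqcrc1.
Atp5g1: cagccgtcccTGCTGCTttgactccat
Uqcrc1: ataccactccTGCTGCTcagctgtgtg
Their log2 fold changes, antimiR-195 over hydrogel, were 0.04 ± 0.22 (SE) for Atp5g1, which encodes a subunit of the membrane ring of ATP synthase, and -0.02 ± 0.15 for Uqcrc1, a core subunit of complex III. Another 8 members held the letters within the coding region, 18.2% against 34.5% of the tested genes. A match of letters is a description and shows no binding.

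Promoters are shown as a description of the members, and their part in the levels was not tested. RefSeq windows of 250 bases before to 50 bases after the start (GRCm38.p6) were at hand for 33 of the 44 members and were searched on both strands for 4 short motifs. The letters GCATGCGC, of the motif of nuclear respiratory factor 1 (NRF1), stood in 8 of the 33 members, or 24.2%, against 3.05% of 27025 genes. Those are all genes with a window, whether or not they were expressed here. CCGGAAG, of the ETS motif to which GABP binds, was found in 12 members, 36.4% against 9.93%. AAGGTCA, of the motif of estrogen-related receptors, was found in 5 members, 15.2% against 5.38%, and AAGATGGC, of the YY1 motif, in 2 members, 6.06% against 3.19%. The 4 motifs do not contain one another, and GCATGCGC is nearly its own reverse complement, so matches on both strands can overlap. The windows below, each upstream of the start and read along the strand of its gene, show the match in capitals. They give 1 example each from complexes II, IV and V, and the cytochrome c gene Cycs from the complex III group. They lie at chr9:50603854-50603930 for Sdhd, chr6:50566587-50566664 for Cycs, chr5:115349076-115349153 for Cox6a1 and chr2:73911337-73911413 for Atp5g3, all on the minus strand.
Sdhd: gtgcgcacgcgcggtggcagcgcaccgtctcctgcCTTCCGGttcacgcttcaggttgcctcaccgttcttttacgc
Cycs: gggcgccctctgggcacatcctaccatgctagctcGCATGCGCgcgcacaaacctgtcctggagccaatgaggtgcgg
Cox6a1: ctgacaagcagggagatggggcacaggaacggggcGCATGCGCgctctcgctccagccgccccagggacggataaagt
Atp5g3: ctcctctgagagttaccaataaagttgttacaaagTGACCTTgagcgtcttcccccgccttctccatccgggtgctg
Sdhd carries the ETS letters and Atp5g3 the estrogen-related receptor letters on the opposite strand, while Cycs and Cox6a1 carry the NRF1 letters on the strand of the gene. The windows of the muscle isoform genes Cox7a1 and Cox8b held none of the 4 letter strings, and Cox6a2 had no window in the table.

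Per length, complex IV genes led the members. The authors' RPKM, reads per kilobase of gene scaled to library size, averaged 2750 ± 635 (SD, n = 8) for Cox6a2, 2110 ± 677 for Cox7a1 and 1920 ± 710 for Cox8b, the 3 muscle isoforms. Neighbours in this order differed by no more than the SD of the lower gene. These SDs include shifts of whole libraries that the genes share, so they do not measure how sure the order is. Cox5a, Cox4i1 and Cox6b1 followed at 1660, 1490 and 1340 RPKM, and the catalytic-head subunits Atp5a1 and Atp5b of complex V at 1200 and 1120 RPKM. Complex III was led by the core subunit Uqcrc1 at 853 RPKM, and complex II by the iron-sulfur subunit Sdhb at 371 RPKM. At the low end were Cycs with 40.4 RPKM, Atp5l with 16.5 RPKM and Cox4i2 with 11.6 RPKM. The order depends on the gene length used: the lengths implied by the authors' RPKM are longer than the mRNA for many members, such as 4912 against 691 bases for Atp5g1. Per kilobase of mRNA, Cox4i1 came first at 3090 CPM, followed by Cox6a2 at 2660 CPM and Atp5b at 2480 CPM.

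Whether antimiR-195 in the gel went with other levels of these genes was asked with edgeR's quasi-likelihood test over all 13972 genes. No member passed at an adjusted p below 0.05, nor did any of the 13972 genes (0%), and the smallest adjusted p over all genes was 0.9999. At an unadjusted p below 0.05 the test picked 178 genes, 1.27% of those tested, and 0 of the 44 members. DESeq2 and limma-voom also called 0 members, adjusted or unadjusted. The groups did not overlap in CPM for 1.07% of the tested genes and for 0 of the 44 members. Log2 fold changes were positive for 28 members and negative for 16, with a median of 0.05 against 0.01 over all tested genes, 52.3% of which were positive. In bulk tissue, fewer cells of a type and less RNA per cell cannot be told apart.

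**Figure D1:**
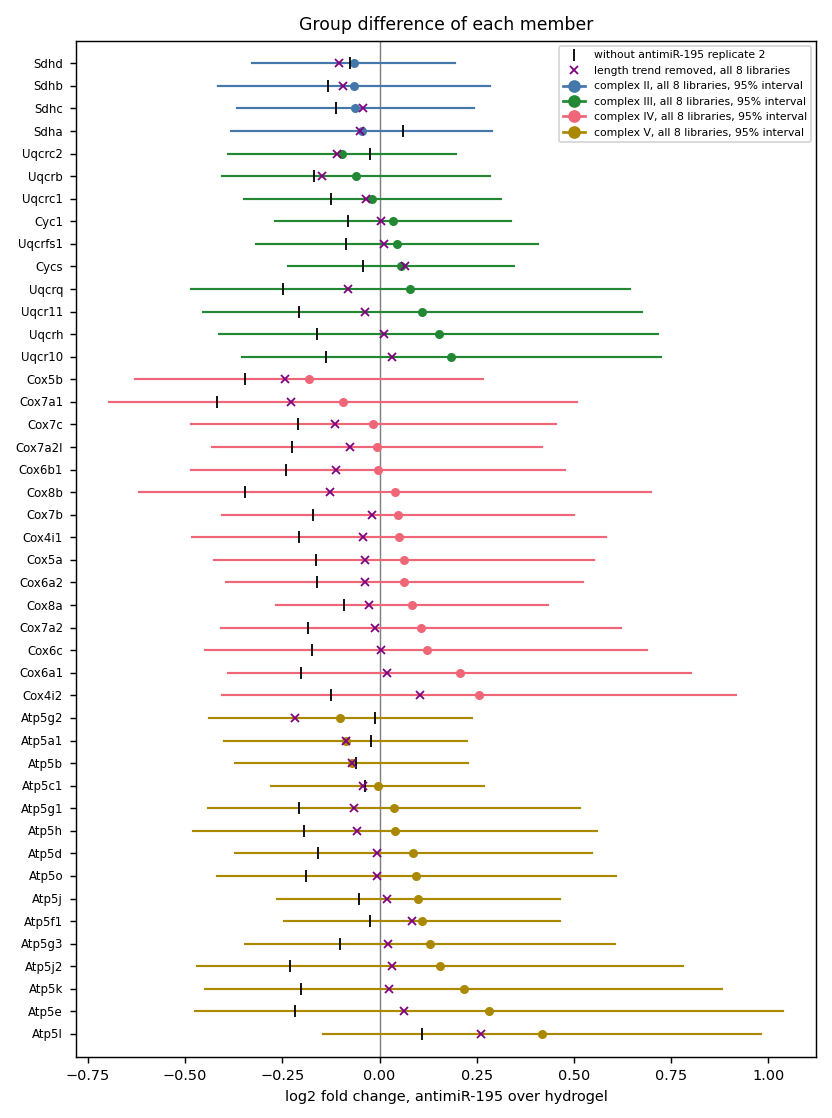
Log2 fold change of each member, antimiR-195 over hydrogel, by complex, with its 95% interval over all 8 libraries (points and lines), the value without antimiR-195 replicate 2 (bars) and the value after each library's trend on mRNA length was removed (crosses). Every interval spans 0, and 42 of the 44 bars lie below 0.

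The direction of these small differences rested on antimiR-195 replicate 2. Without it, 42 members were negative and 2 positive, with a median of -0.16, while 51.3% of the 14107 genes then tested were negative. No member passed in that fit either, and 0 had an unadjusted p below 0.05, against 1.84% of the genes tested. The nearest was Cox7a1 at -0.42 (unadjusted p = 0.0519, adjusted p = 0.9992 in edgeR). Without hydrogel replicate 3, the hydrogel library with the highest levels of most members, 37 members were positive and the median was 0.16. Without hydrogel replicate 4, 17 were positive and 27 negative (median -0.04), and without antimiR-195 replicate 3, 35 were positive and 9 negative. No member was called in any of these fits.

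Complex II had the narrowest range. Its 4 genes had log2 fold changes of -0.07 to -0.05 with a median SE of 0.14, and the 95% intervals of the 4 reached from -0.42 to 0.29 at their widest. Sdhb, the iron-sulfur subunit that passes electrons through the complex, stood at 888, 748, 1070 and 698 CPM in hydrogel replicates 1 to 4 and at 827, 906, 706 and 813 CPM in antimiR-195 replicates 1 to 4. Hydrogel replicate 3 was highest and hydrogel replicate 4 lowest, so that the antimiR-195 libraries lay inside the range of the other group. Its log2 fold change was -0.07 ± 0.16.
Sdhc and Sdhd encode the membrane anchor of the complex. Sdhc was measured at 572, 545, 641 and 456 CPM in the hydrogel and 564, 573, 463 and 521 CPM in the antimiR-195 libraries. Sdhd was measured at 414, 406, 465 and 378 CPM against 419, 396, 354 and 418 CPM. Both were highest in hydrogel replicate 3 and their groups overlapped, with log2 fold changes of -0.06 ± 0.14 and -0.07 ± 0.12. Sdhd had the smallest coefficient of variation (CV) of the complex over the 8 libraries, 8.01%, and Sdhb the largest, 14.8%. Sdha, the flavoprotein that oxidizes succinate, averaged 1160 ± 87.3 CPM (SD, n = 4) in the hydrogel and 1120 ± 193 CPM in the antimiR-195 group. Among the complex II genes, Sdha had its lowest level in antimiR-195 replicate 2, at 0.715 times the median of the other libraries.

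In complex III, 7 of 10 genes had positive and 3 negative log2 fold changes, between -0.10 and 0.18, with a median of 0.05. The core subunits varied little. Uqcrc1 stood at 1400, 1410, 1660 and 1210 CPM in the hydrogel libraries and at 1380, 1680, 1210 and 1350 CPM in the antimiR-195 libraries. Uqcrc2 stood at 804, 881, 897 and 766 CPM against 775, 646, 849 and 862 CPM, and had the smallest CV of the complex, 10.1%. AntimiR-195 replicate 2 was thus the highest library for Uqcrc1 and the lowest for Uqcrc2, although both proteins are built into the same core. Their log2 fold changes were -0.02 ± 0.15 and -0.10 ± 0.13.
The small subunits of complex III showed the reverse of Uqcrc2 in that library. Uqcr10 was measured at 503, 388, 503 and 346 CPM in the hydrogel and 434, 784, 363 and 397 CPM in the antimiR-195 libraries. Uqcrh, the hinge protein that helps cytochrome c dock, was measured at 746, 646, 919 and 566 CPM against 766, 1250, 539 and 638 CPM, and had the largest CV of the complex, 30.8%. For both, antimiR-195 replicate 2 lay above all other libraries while the other 3 antimiR-195 libraries lay inside or just below the hydrogel range. The log2 fold changes were 0.18 ± 0.24 for Uqcr10 and 0.15 ± 0.26 for Uqcrh. The Rieske protein gene Uqcrfs1, cytochrome c1 (Cyc1), Cycs, Uqcrb, Uqcrq and Uqcr11 had log2 fold changes of -0.06 (Uqcrb) to 0.11 (Uqcr11), each within 1 SE of 0.

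In complex IV, 10 of 15 genes were positive and 5 negative, between -0.18 and 0.26, with a median of 0.05 and a median SE of 0.22. Subunit 6a has a muscle form, Cox6a2 (ENSMUSG00000030785, chr7:128205435-128206387, minus strand), and a form of other tissues, Cox6a1 (ENSMUSG00000041697, chr5:115345642-115348981, minus strand). Cox6a2 stood at 1870, 1680, 2110 and 1420 CPM in the hydrogel and 1710, 2620, 1380 and 1700 CPM in the antimiR-195 libraries. Cox6a1 stood at 144, 116, 144 and 117 CPM against 130, 259, 98.7 and 113 CPM. Both isoforms were highest in antimiR-195 replicate 2 and lowest in antimiR-195 replicate 3, with log2 fold changes of 0.06 ± 0.21 and 0.21 ± 0.27.
Their ratio within a library does not depend on library scaling. The CPM ratio Cox6a2/Cox6a1 was 13.0, 14.5, 14.7 and 12.2 in the hydrogel and 13.2, 10.1, 13.9 and 15.1 in the antimiR-195 libraries. The antimiR-195 group thus held both the lowest and the highest ratio, replicates 2 and 4. The log2 ratio differed by -0.07 (95% interval -0.53 to 0.3; exact two-sided permutation test over 70 assignments, p = 0.743, adjusted over the 6 pairs 0.743). Per length, Cox6a2 made up 91.5% to 94.1% of the summed RPKM of the pair and 89.5% to 92.7% per kilobase of mRNA. Transcripts of other genes hold 23.1% of the 32-base stretches of the Cox6a1 mRNA and 0% of those of Cox6a2. Because reads that aligned to more than 1 place were not counted, the share of Cox6a2 can be too high. The smallest p this test allows is 0.0286.

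**Figure D2:**
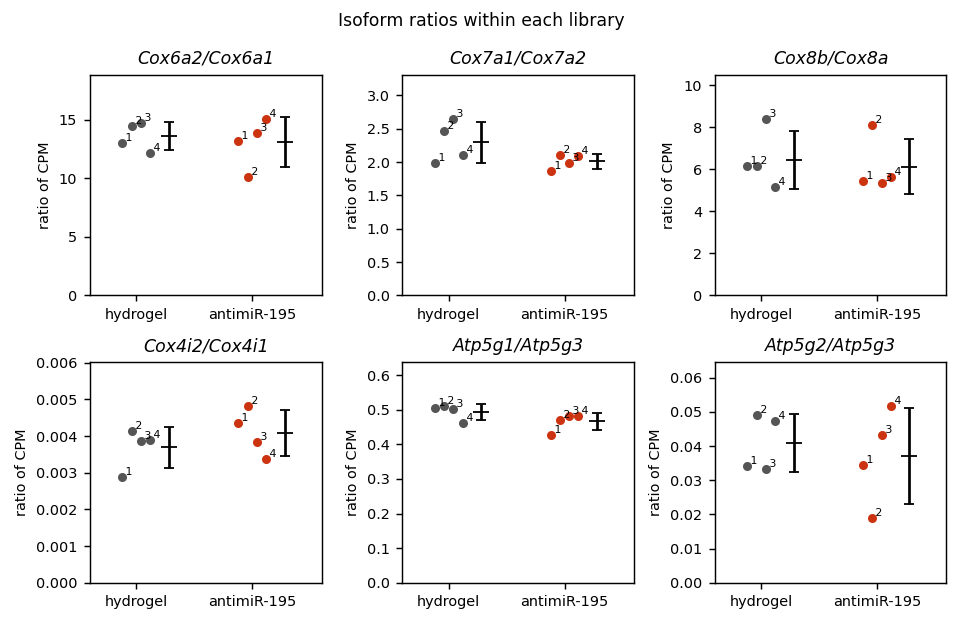
Ratio of CPM within each library for 6 isoform pairs, 1 panel a pair, each on its own linear axis from 0, with replicates numbered and the group mean ± SD (n = 4) beside them. The groups overlap in all 6 panels, and the Cox8b/Cox8a ratio of antimiR-195 replicate 2 (8.11) and hydrogel replicate 3 (8.41) stands above the other libraries (5.14 to 6.17).

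Subunit 7a showed a weaker lead of the muscle form. Cox7a1, the muscle form (chr7:30184144-30186078, plus strand), stood at 725, 767, 1120 and 567 CPM in the hydrogel and 625, 1180, 534 and 638 CPM in the antimiR-195 libraries. Cox7a2, the other form (chr9:79755361-79759878, minus strand), stood at 364, 312, 422 and 269 CPM against 336, 563, 269 and 304 CPM. The highest libraries were antimiR-195 replicate 2 and then hydrogel replicate 3 for both genes, with log2 fold changes of -0.09 ± 0.27 for Cox7a1 and 0.11 ± 0.23 for Cox7a2. Their CPM ratio averaged 2.3 ± 0.306 (SD, n = 4) in the hydrogel and 2.01 ± 0.113 in the antimiR-195 group. This gave the smallest p of the 6 pairs, a log2 difference of -0.19 (95% interval -0.51 to 0.07; exact permutation p = 0.114, adjusted 0.514). The groups overlapped, with ratios of 1.99 to 2.65 against 1.86 to 2.1, and Cox7a1 made up 79.4% to 84.6% of the RPKM of the pair.
Subunit 8 is encoded by Cox8b (chr7:140898945-140900446, minus strand) in heart and muscle and by Cox8a (chr19:7215153-7217616, minus strand) in most tissues. Cox8b stood at 676, 603, 967 and 496 CPM in the hydrogel and 573, 1190, 462 and 594 CPM in the antimiR-195 libraries. Cox8a stood at 110, 97.8, 115 and 96.5 CPM against 105, 147, 86.2 and 106 CPM. Here the muscle form deviated more than its partner: in antimiR-195 replicate 2, Cox8b reached 2 times and Cox8a 1.39 times the median of the other libraries. Their mRNAs have 360 and 550 bases. On the log2 scale the SD within groups was 0.506 for Cox8b and 0.241 for Cox8a. It was 0.147 for both once each library's trend on mRNA length was removed, as described below. The log2 fold changes were 0.04 ± 0.30 and 0.08 ± 0.16, and the CV over the 8 libraries was 36.3% for Cox8b and 16.7% for Cox8a, the smallest of complex IV. The log2 ratio differed by -0.08 between the groups (95% interval -0.65 to 0.65; exact permutation p = 0.629, adjusted 0.743), and Cox8b made up 88.6% to 92.7% of the RPKM of the pair.
Subunit 4 has the general form Cox4i1 and the form Cox4i2, known from lung and from hypoxia. Cox4i1 stood at 2500, 2000, 2890 and 1680 CPM in the hydrogel and 2270, 3450, 1720 and 1940 CPM in the antimiR-195 libraries. Cox4i2 stood at 7.19, 8.26, 11.1 and 6.55 CPM against 9.86, 16.6, 6.58 and 6.55 CPM, from 110 to 304 counts a library. Both were highest in antimiR-195 replicate 2, and Cox4i2 had the largest CV of complex IV, 38.3%, and its largest log2 fold change, 0.26 ± 0.30. Cox4i1 had a log2 fold change of 0.05 ± 0.24. Cox4i2 made up 0.564% to 0.939% of the RPKM of the pair and 0.294% to 0.491% per kilobase of mRNA, since the RPKM imply 1550 bases for Cox4i1 where its mRNA has 745. The log2 ratio differed by 0.15 (95% interval -0.28 to 0.72; exact permutation p = 0.4, adjusted 0.743). Without antimiR-195 replicate 2 the log2 fold change of Cox4i2 was -0.12.

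The other complex IV genes have no isoform among the members. Cox5b, a subunit on the matrix side, had the most negative log2 fold change of all members, -0.18 ± 0.20. It stood at 686, 651, 848 and 490 CPM in the hydrogel and 516, 769, 454 and 620 CPM in the antimiR-195 libraries, and 3 antimiR-195 libraries lay inside the hydrogel range while replicate 3 lay below it. Cox5b was the 1 gene of complex IV that was not highest in antimiR-195 replicate 2, and Cox7a2l, known for its part in joining complexes III and IV, was among the 14 that were. The log2 fold changes of Cox5a, Cox6b1, Cox6c, Cox7a2l, Cox7b and Cox7c lay between -0.02 (Cox7c) and 0.12 (Cox6c).

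In complex V, 11 of 15 genes were positive and 4 negative, between -0.10 and 0.42, with a median of 0.10. The alpha subunit of the catalytic head, Atp5a1, stood at 3960, 3870, 4270 and 3470 CPM in the hydrogel and 3900, 3070, 3780 and 3920 CPM in the antimiR-195 libraries. The gamma subunit of the rotating stalk, Atp5c1, stood at 1100, 1100, 1230 and 953 CPM against 1110, 1140, 1020 and 1100 CPM. The head genes varied little, and Atp5a1 was lowest in antimiR-195 replicate 2, where most members were highest. Their log2 fold changes were -0.09 ± 0.14 and -0.01 ± 0.12, and Atp5c1 had the smallest CV of the complex, 7.56%. The catalytic beta subunit gene Atp5b averaged 4870 ± 519 CPM (SD, n = 4) in the hydrogel and 4630 ± 171 CPM in the antimiR-195 group.
Atp5e, the small epsilon subunit of the stalk, spread most of all members, with a CV of 46.2%. It stood at 434, 317, 499 and 276 CPM in the hydrogel and 405, 863, 277 and 310 CPM in the antimiR-195 libraries. The value of antimiR-195 replicate 2 was 2.72 times the median of the other libraries, and the other 3 antimiR-195 libraries lay inside the hydrogel range. Its log2 fold change was 0.28 ± 0.34, and -0.22 without that library.
Atp5l, a subunit of the membrane part, had the largest log2 fold change and the smallest p of all members, 0.42 ± 0.26 (95% interval -0.15 to 0.98; unadjusted p = 0.131, adjusted p = 0.9999 in edgeR). It stood at 7.62, 6.01, 8.72 and 6.44 CPM in the hydrogel and 9.81, 15, 6.76 and 6.89 CPM in the antimiR-195 libraries. Replicates 1 and 2 of antimiR-195 lay above all hydrogel libraries and the other two inside their range. These values rest on 113 to 274 counts a library, and 69.6% of the 32-base stretches of its mRNA also occur in transcripts of other annotated genes. Reads that aligned to more than 1 place were not counted, so the level of Atp5l is uncertain.

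The ring of c subunits that turns in the membrane is encoded by 3 genes whose mature proteins are the same. Atp5g1 stood at 755, 692, 897 and 566 CPM in the hydrogel and 696, 1080, 554 and 653 CPM in the antimiR-195 libraries. Atp5g3 stood at 1500, 1350, 1790 and 1230 CPM against 1630, 2290, 1150 and 1350 CPM. Atp5g2 stood at 51.2, 66.3, 59.5 and 57.9 CPM against 56.2, 43.2, 49.7 and 70 CPM. Atp5g1 and Atp5g3 were highest in antimiR-195 replicate 2 and Atp5g2 was lowest there, and the groups overlapped for all 3, with log2 fold changes of 0.04 ± 0.22, 0.13 ± 0.22 and -0.10 ± 0.15. Atp5g3 held most of the counted c subunit RNA on either length scale, and the shares of the other two depended on the scale. Of the summed RPKM, Atp5g3 held 68.0% to 76.8%, Atp5g1 14.0% to 16.1% and Atp5g2 7.16% to 17.4%, with the long gene length of 4912 bases that the RPKM imply for Atp5g1. Per kilobase of mRNA, the shares were 62.1% to 66.8% for Atp5g3, 29.5% to 33% for Atp5g1 and 2.01% to 5.3% for Atp5g2. The log2 ratio Atp5g1/Atp5g3 differed by -0.09 between the groups (95% interval -0.25 to 0.06; exact permutation p = 0.171, adjusted 0.514) and Atp5g2/Atp5g3 by -0.21 (-1.37 to 0.63; p = 0.657, adjusted 0.743).
All of the 32-base stretches of the Atp5g2 mRNA (100%) and 57.6% of those of Atp5g1 occur in transcripts of other genes, so reads of both can be missing from the counts. The same holds for Atp5h at 60.3%, Cox7c at 55.4% and Uqcrb at 53.6%. None of the stretches of the Atp5g3 mRNA (0%) occur in other genes in this way. The shares and ratios of the c subunit genes can therefore be shifted toward Atp5g3. The remaining complex V genes (Atp5d, Atp5f1, Atp5h, Atp5j, Atp5j2, Atp5k and Atp5o) had log2 fold changes of 0.04 (Atp5h) to 0.22 (Atp5k), each within 1 SE of 0. Overlapping annotated genes share sequence with 10 members, among them Cox6a2 (Itgad), Cox4i1 (Emc8) and Atp5j (Gabpa), and the strand setting of the counting is not known.

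Library by library, most members were high or low together. AntimiR-195 replicate 2 was the highest of the 8 libraries for 33 of 44 members (75.0%), against 30.8% of all 13972 tested genes. The count was 0 of 4 in complex II, 8 of 10 in complex III, 14 of 15 in complex IV and 11 of 15 in complex V. Hydrogel replicate 3 came second for 31 members and first for 9. AntimiR-195 replicate 3 was lowest for 22 members and hydrogel replicate 4 for 17, so each group held 1 high and 1 low library. Relative to the median of the other libraries, antimiR-195 replicate 2 ranged from 0.715 for Sdha to 2.72 for Atp5e, with medians of 1.35 in complex III, 1.68 in complex IV and 1.62 in complex V.

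**Figure D3:**
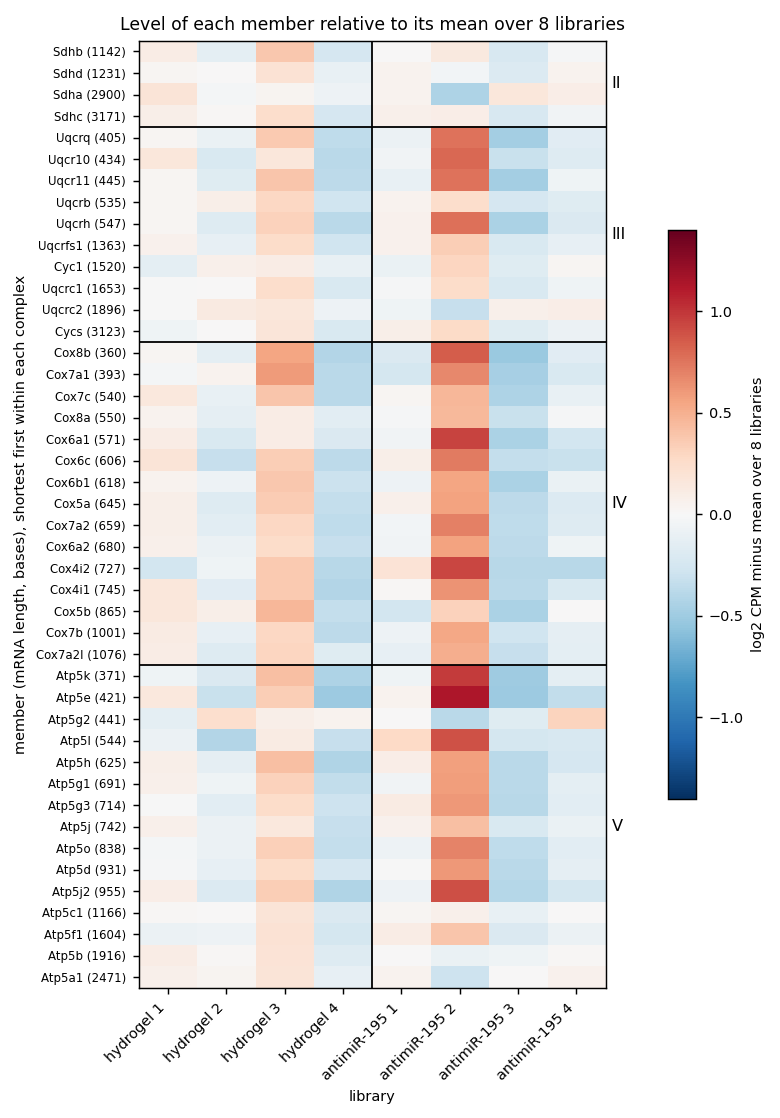
Log2 CPM of each member in each library minus its mean over the 8 libraries (colour), with members ordered by complex and, within a complex, from the shortest to the longest mRNA. AntimiR-195 replicate 2 is red for most of complexes III, IV and V and not for complex II, and hydrogel replicate 4 and antimiR-195 replicate 3 are blue for most members.

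Summed over its genes, complex II lay between 2614 and 3341 CPM in the hydrogel and between 2716 and 2987 CPM in the antimiR-195 libraries. Complex III summed to 6358 ± 901 CPM (SD, n = 4) in the hydrogel and 6518 ± 1350 CPM in the antimiR-195 group. Complex IV summed to 10819 ± 2320 against 11065 ± 3560 CPM, and complex V to 17378 ± 2330 against 17501 ± 2230 CPM. The differences between these means were smaller than the SD within either group. In antimiR-195 replicate 2 the sums were 91.1%, 133%, 150% and 118% of the hydrogel mean for complexes II, III, IV and V. Without that library, the antimiR-195 means were 2915, 5871, 9346 and 16486 CPM.

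**Figure D4:**
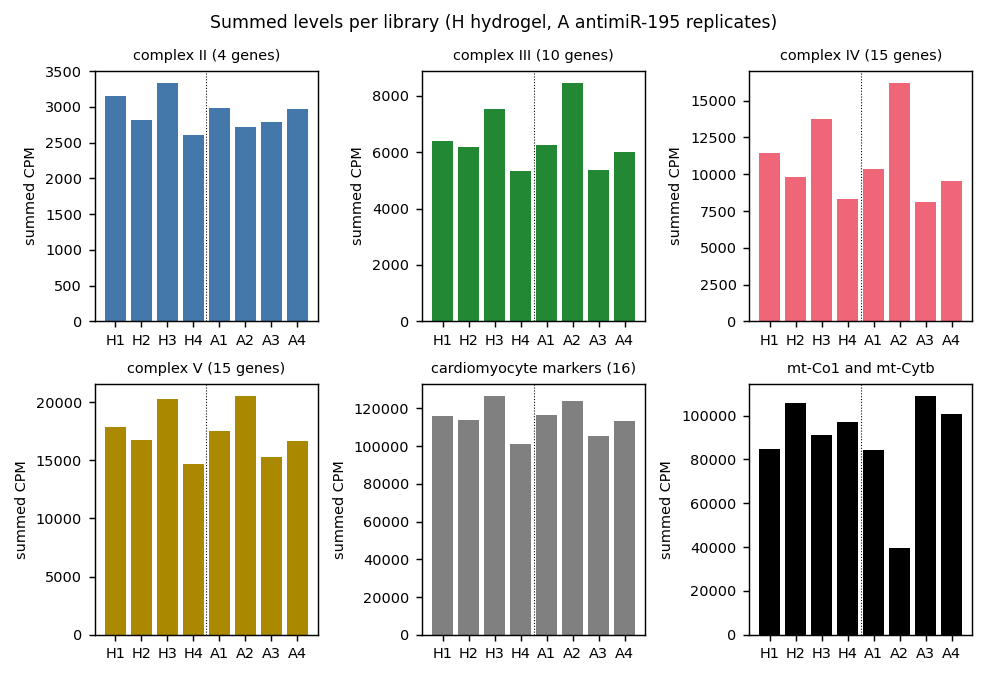
Summed CPM per library for each complex, for 16 cardiomyocyte markers and for mt-Co1 with mt-Cytb, as bars from 0 on linear axes that differ between panels. In antimiR-195 replicate 2 (A2) complex IV is at its highest (16224 CPM) and the mitochondrially encoded pair at its lowest (39765 CPM).

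The 2 tested subunits encoded by mitochondrial DNA stood the other way round in this library. The oxidase subunit mt-Co1 was measured at 52600, 64400, 54700 and 59100 CPM in the hydrogel and 52800, 17700, 68100 and 60300 CPM in the antimiR-195 libraries. Cytochrome b of complex III, mt-Cytb, was measured at 32200, 41200, 36500 and 37800 CPM against 31600, 22100, 40900 and 40600 CPM. AntimiR-195 replicate 2 was lowest for both, and the groups overlapped, with log2 fold changes of -0.22 ± 0.34 and -0.13 ± 0.22. Without that library they were 0.06 ± 0.15 and 0.02 ± 0.16. The other 4 mitochondrially encoded genes of complexes IV and V (mt-Co2, mt-Co3, mt-Atp6 and mt-Atp8) were below 1 CPM in all libraries and were not tested. Reads that aligned to more than 1 place were not counted, so these low values need not mean low RNA levels. The cause of the low counts was not tested.

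In 6 of the 8 libraries the deviation of the members, taken with its sign, went with the length of the mRNA. Members of complex II have a median mRNA length of 2066 bases, against 955 bases in complex III, 645 in complex IV and 742 in complex V. In antimiR-195 replicate 2 the median deviation from the mean over 8 libraries, in log2 CPM, was 0.71 for the 21 members under 700 bases, 0.53 for the 14 of 700 to under 1500 bases and 0.09 for the 9 of 1500 bases or more. Over all genes with an mRNA model the same medians were 0.73 (309 genes), 0.43 (1911) and -0.1 (10769). Below 700 bases, members and all genes thus deviated by similar amounts in that library. Sdhb and Sdhd of complex II, with mRNAs of 1142 and 1231 bases, deviated there by only 0.136 and -0.035. In hydrogel replicate 3 the medians of the members were 0.34, 0.3 and 0.18, where all genes had 0.22, 0.14 and -0.02. In antimiR-195 replicate 3 they were -0.38, -0.34 and -0.17 against -0.39, -0.26 and 0.07 over all genes. Spearman's rho between length and deviation over the 44 members was -0.67 in antimiR-195 replicate 2, -0.43 in hydrogel replicate 3, 0.6 in hydrogel replicate 4 and 0.73 in antimiR-195 replicate 3. It was 0.45 in hydrogel replicate 2 and 0.55 in antimiR-195 replicate 4, but 0.05 in hydrogel replicate 1 and 0.23 in antimiR-195 replicate 1, where it was -0.13 and -0.15 over all genes. Genes of 1 library share its depth and RNA, so these values describe the libraries and carry no p. The labels give no RNA quality values, and the part of length in the group comparison was examined only by removing its trend, as follows.

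**Figure D5:**
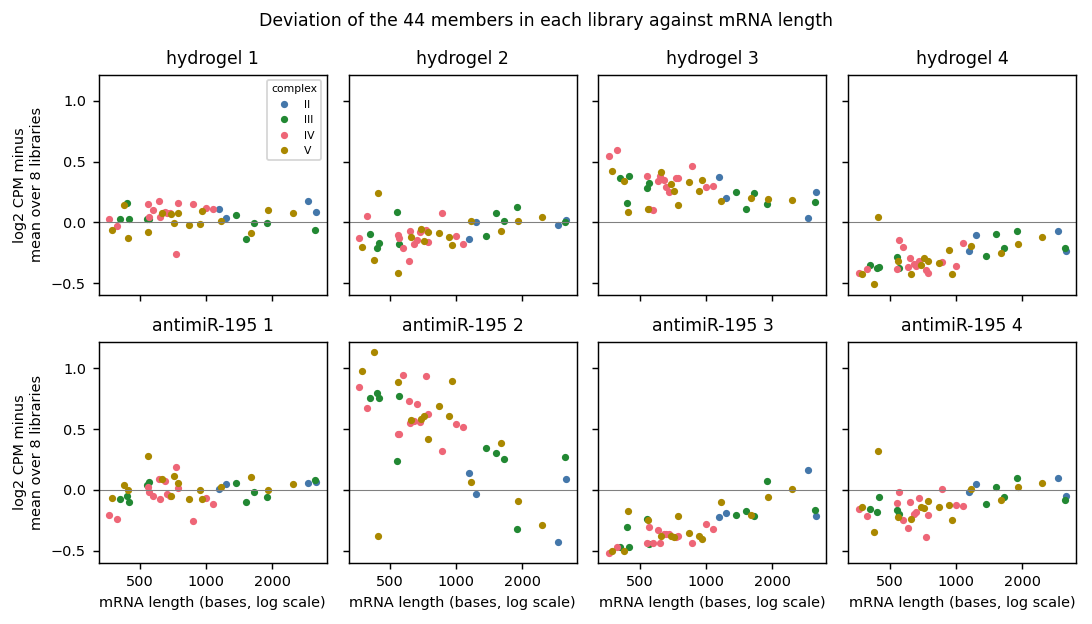
Log2 CPM of each member minus its mean over 8 libraries against mRNA length (bases, log axis), 1 panel a library, coloured by complex. Points fall from left to right in antimiR-195 replicate 2 and climb in antimiR-195 replicate 3 and hydrogel replicate 4.

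When each library's trend on mRNA length, fitted over 12989 genes, was taken off, the libraries of a group lay closer together for most members. The median SD within groups went from 0.34 to 0.12 on the log2 scale, and the SD was smaller for 35 of the 44 members. Of the log2 fold changes, 15 were then positive and 29 negative, with a median of -0.04, and 51.4% of all genes were negative. Medians were -0.07 in complex II, -0.02 in complex III, -0.04 in complex IV and -0.01 in complex V. limma-trend called 0 members and 0 genes at an adjusted p below 0.05. At an unadjusted p below 0.05 it picked 1.59% of all genes and, of the members, only Atp5l. Its log2 fold change was 0.26 ± 0.11 (unadjusted p = 0.0435, adjusted p = 0.9993 in limma). Its levels, in log2 CPM with the trend removed, were 2.92, 2.79, 2.92 and 2.95 in the hydrogel and 3.28, 3.18, 3.17 and 2.98 in the antimiR-195 libraries. All 4 antimiR-195 values lay above the hydrogel values, replicate 4 just so. On this scale the groups did not overlap for 1.22% of the 12989 genes and, of the 44 members, for Atp5l, whose level is uncertain as given above. Next came Cox5b at -0.24 ± 0.13 and Cox7a1 at -0.23 ± 0.12, with unadjusted p of 0.0804 and 0.0916 and adjusted p of 0.9993 in limma.

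In the lists of other genes of these pathways, 0 were called by edgeR at an adjusted p below 0.05, and 1, the regulator Nrf1, had an unadjusted p below 0.05. Of 5 further tested subunits, all 5 were positive with a median of 0.22, and the 2 with the smallest p were Atpif1, an inhibitor of ATP synthase, at 0.22 ± 0.25 and Cox6b2 at 0.32 ± 0.39. Both were highest in antimiR-195 replicate 2, at 403 and 3.83 CPM. Without that library 4 of the 5 were negative, with a median of -0.13, Atpif1 at -0.09 and Cox6b2 at -0.17. Assembly factors split into 2 positive and 2 negative for complex II, where Sdhaf1 was at 0.11 ± 0.19 and Sdhaf2 at -0.07 ± 0.12. For complex III, Uqcc1 was at -0.12 ± 0.12 and Uqcc2 at 0.24 ± 0.26, among 7 genes with 3 in each direction and 1 at 0. For complex IV, 16 of 25 were positive and 8 negative, with Cox18 at 0.24 ± 0.15 and Fastk at -0.20 ± 0.16. All 3 factors of complex V were negative, among them Atpaf1 at -0.29 ± 0.17 and Tmem70 at -0.06 ± 0.10. Without antimiR-195 replicate 2, the assembly factors of complexes II, III, IV and V were negative in 4 of 4, 5 of 7, 19 of 25 and 3 of 3 cases, with Sdhaf1 at -0.11 and Uqcc2 at -0.11.
Among 13 regulators of respiratory genes, 7 were positive and 6 negative with a median of 0.01. Nrf1, the gene of the factor whose letters stand in the Cycs and Cox6a1 windows above, was measured at 11.4, 12.4, 11.8 and 11.9 CPM in the hydrogel and 13.1, 16.9, 15.3 and 14.2 CPM in the antimiR-195 libraries. All 4 antimiR-195 libraries lay above all hydrogel libraries, a separation that 1.07% of the tested genes showed in one direction or the other. Its log2 fold change was 0.33 ± 0.12 (unadjusted p = 0.0206, adjusted p = 0.9999 in edgeR), which did not pass. Without antimiR-195 replicate 2, Nrf1 was at 0.25 ± 0.11, and 10 of the 13 regulators were positive. Hif1a, the oxygen-regulated factor, was next at 0.18 ± 0.14.
Markers of other cells gave summed levels of 4808 to 8917 CPM in the hydrogel and 6819 to 9414 CPM in the antimiR-195 libraries for 11 fibroblast genes. Summed macrophage markers (12 of 12 found) were 1717 to 2280 CPM and 1436 to 2489 CPM. Hydrogel replicate 3, high in most members, was the library with the most cardiomyocyte and the least fibroblast marker RNA, and hydrogel replicate 4, low in most members, had the least cardiomyocyte marker RNA. AntimiR-195 replicate 2, in which most members were highest, had the highest summed fibroblast and macrophage markers of the 8 libraries. Its cardiomyocyte sum was the second highest. The markers within each list split in that library. Of the cardiomyocyte markers, Actc1, Tnnt2, Tnni3, Myl2 and Myl3 were at their highest and Myh6, Ttn, Ryr2, Atp2a2, Pln and Casq2 at their lowest. Of the fibroblast genes, Col1a1, Col1a2, Postn, Acta2, Tnc and Tcf21 were at their highest and Pdgfra, Dcn and Lum at their lowest. The sums therefore do not measure cell content, whose part in the levels of the respiratory genes was not tested.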

How the data were processed

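Per the labels' protocols, TRIzol RNA went into TruSeq stranded mRNA libraries. STAR, HTSeq, DESeq and GRCm38 appear in the submitters' processing notes, without versions. The deposited values are whole-number counts per Ensembl gene, identical in the per-library files and the series table (0 differing cells), and RPKM values that the authors also deposited. For read length, annotation release and strand setting, no value was given in the sources used here. The HTSeq summary lines were left out: reads outside genes were 6.38% to 7.55%, ambiguous reads 0.772% to 1.05%, and alignments to more than 1 place 42.1% to 47.8%.

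Genes were filtered with filterByExpr and scaled with TMM factors (0.953 to 1.04). Groups were compared by the quasi-likelihood test of edgeR 4.0.16 (R 4.3.3) over 8 libraries without covariates, with Benjamini-Hochberg adjustment over all 13972 genes and a threshold of 0.05. Fold changes are log2 of antimiR-195 over hydrogel ± SE. Isoform ratios used log2 CPM with a prior count of 2 and an exact two-sided permutation test, whose interval was found by inverting it. mRNA length is that of a principal consensus transcript (GENCODE M21). Members reached 110 to 117029 counts in a library. Scripts were tested on simulated data.

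Alternatives were DESeq2 1.42.0, limma-voom (limma 3.58.1), RLE factors, no filter, limma-trend on log2(RPKM + 0.1) and log2(RPKM + 1), and leaving out each library. Fits of limma-trend on log2 CPM with and without each library's trend on mRNA length (lowess span 0.3) were added after the data were seen. The members and the gene lists were chosen with earlier results of these data known. Values in every library are given for isoform pairs, and per complex for the gene with the highest RPKM, the 2 smallest p, and the largest and smallest CV. Of each other list of pathway genes the 2 with the smallest p are named.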

Additional observations from a re-analysis of the deposited data

Results flagged for a closer look

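In groups of 4 libraries, the lowest and the highest value of each of the 44 members, the 6 isoform ratios and the 4 sums by complex were set against the gap to its neighbour (Dixon's test at its 95% critical value). Of 108 groups tested 4 stood out, all through antimiR-195 replicate 2. The groups share libraries and members, so this count cannot be set against the 1 in 20 that chance gives for independent groups. Uqcr10 reached 783.8 CPM there, where the other antimiR-195 libraries lay at 363 to 434 CPM. Cox7a1 reached 1182 CPM against 534 to 638 CPM. Atp5a1 was low, at 3074 CPM against 3780 to 3920 CPM. The CPM ratio Cox8b/Cox8a was 8.105 against 5.36 to 5.62, although hydrogel replicate 3 had a ratio of 8.41.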

How the results depend on the processing

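No gene was called at an adjusted p below 0.05 under any of the 17 settings, and the count at an unadjusted p below 0.05 moved from 178 in the edgeR test to 193 with DESeq2, 170 with limma-voom, 176 with RLE factors, 428 of 22669 genes without the filter, 180 and 182 on log2(RPKM + 0.1) and log2(RPKM + 1), 143 and 207 with limma-trend on log2 CPM before and after the length trend was removed, and 104 to 352 when 1 library was left out. Of 184 log2 fold changes of named members under the other settings, 171 kept their sign and 13 changed it. Atp5c1 was at 0 with limma-voom and at 0.027 on both RPKM scales, where Uqcrc1 was at 0.007. Cox8b was at -0.015 with limma-voom, -0.016 with limma-trend on log2 CPM and -0.13 with the length trend removed. The removal also gave -0.065 for Atp5g1, -0.043 for Cox4i1, -0.038 for Cox6a2, -0.013 for Cox7a2 and -0.028 for Cox8a. The cause was not tested.
Leaving out 1 library at a time changed the sign of 26 of 184 log2 fold changes and 3 of 48 ratios, with these ranges: Atp5c1 -0.073 to 0.056, Atp5e -0.22 to 0.46, Atp5g1 -0.21 to 0.16, Atp5g3 -0.10 to 0.26, Cox4i1 -0.21 to 0.19, Cox4i2 -0.12 to 0.43, Cox6a1 -0.20 to 0.36, Cox6a2 -0.16 to 0.18, Cox7a1 -0.42 to 0.12, Cox7a2 -0.18 to 0.23, Cox8a -0.091 to 0.18, Cox8b -0.35 to 0.25, Sdhb -0.16 to 0.063, Sdhc -0.15 to 0.016, Uqcr10 -0.14 to 0.31, Uqcrc1 -0.12 to 0.065, Uqcrh -0.16 to 0.30, Cox6a2/Cox6a1 -0.14 to 0.052, Cox8b/Cox8a -0.22 to 0.059 and Atp5g2/Atp5g3 -0.40 to 0.081.
No paired analysis was possible because the replicate numbers follow the order of deposition and pair no libraries. The median SE of a member was 0.21 on the log2 scale in the edgeR test and 0.10 with the length trend removed, and the number of libraries, 4 a group, limits the precision. Members with copies elsewhere in the genome are uncertain under every setting.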
